A study of Mus musculus with 6 samples.

Results

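Heat shock chaperones of the cytosol and mitochondria were followed through 6 RNA-seq libraries. The set holds 10 genes, listed by symbol with earlier results of these data known, of 27634 genes in the deposited table, and all 10 were found and passed the filter on low counts. The cells were cancer-associated dendritic cells (the labels' term) of C57BL/6 mice with ID8-Defb29/Vegf-a tumours; ID8 is a mouse ovarian carcinoma line, here with added Defb29 and Vegf-a. All mice, controls included, received 100 µg of siRNA in rhodamine-labelled polyethylenimine nanocomplexes over 32 to 38 days of tumour growth. The siRNA was non-targeting (NT) or directed at Satb1, a chromatin organiser; an siRNA lowers the messenger RNA and leaves the gene in place, in whichever cells take it up. In the experiment that the labels describe as highly downregulated (here the strong-knockdown experiment) there were 2 NT and 2 Satb1 siRNA libraries. The experiment labelled low downregulation (here the weak-knockdown experiment) had 1 library of each. The sources used here do not give the age of the mice, whether mice were pooled or how the cells were isolated.

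Heat shock chaperones keep other proteins folded. HSP70 proteins bind exposed stretches of unfolded chains and release them in an ATP cycle that J-domain proteins start and nucleotide exchange factors complete, HSP90 proteins act later on signalling proteins and receptors, and the HSP60/HSP10 chamber folds proteins inside mitochondria. Some genes of the set are mainly constitutive (Hspa8, Hsp90ab1), while others rise steeply when heat, proteotoxic stress or tissue handling activates heat shock factor 1 (Hspa1a, Hspa1b, Dnajb1, Hsph1, Hspb1). That factor binds heat shock elements, arrays of the triplet GAA and its reverse complement TTC in alternating orientation.

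Promoter windows of the set were searched for the letters of this element, and some of them are shown. RefSeq's table (build GRCm38, while the expression files use mm9) held 7 of the 10 genes. The windows are the 250 bases before the annotated start, on the gene's own strand, 5′ to 3′. Capitals mark matches to GAANNTTC or TTCNNGAA, each of which is its own reverse complement, so that both strands are covered, and overlapping matches are joined. The windows lie at chr17:34972157-34972406 (minus strand) for Hspa1a, chr17:34959239-34959488 (minus) for Hspa1b, chr5:135887669-135887918 (plus) for Hspb1, chr5:149636316-149636565 (minus) for Hsph1 and chr1:55087898-55088147 (plus) for Hspe1.
Hspa1a: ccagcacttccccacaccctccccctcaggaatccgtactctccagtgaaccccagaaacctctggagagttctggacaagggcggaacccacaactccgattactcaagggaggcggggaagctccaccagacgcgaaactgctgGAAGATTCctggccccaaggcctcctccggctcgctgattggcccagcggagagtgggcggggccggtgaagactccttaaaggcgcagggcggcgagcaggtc
Hspa1b: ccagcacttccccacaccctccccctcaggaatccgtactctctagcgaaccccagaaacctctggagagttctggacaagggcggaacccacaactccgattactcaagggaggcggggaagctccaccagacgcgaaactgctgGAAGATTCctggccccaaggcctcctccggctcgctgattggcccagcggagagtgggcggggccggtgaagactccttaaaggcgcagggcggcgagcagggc
Hspb1: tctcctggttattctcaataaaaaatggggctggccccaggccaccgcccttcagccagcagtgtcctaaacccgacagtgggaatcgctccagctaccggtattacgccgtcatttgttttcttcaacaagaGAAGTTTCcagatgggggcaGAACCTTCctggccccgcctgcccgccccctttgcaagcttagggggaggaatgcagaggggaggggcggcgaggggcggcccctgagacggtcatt
Hsph1: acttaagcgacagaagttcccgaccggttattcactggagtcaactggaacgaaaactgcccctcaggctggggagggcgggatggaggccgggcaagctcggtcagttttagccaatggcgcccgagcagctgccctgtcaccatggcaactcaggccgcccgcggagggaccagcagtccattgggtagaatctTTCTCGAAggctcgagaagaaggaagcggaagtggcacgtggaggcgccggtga
Hspe1: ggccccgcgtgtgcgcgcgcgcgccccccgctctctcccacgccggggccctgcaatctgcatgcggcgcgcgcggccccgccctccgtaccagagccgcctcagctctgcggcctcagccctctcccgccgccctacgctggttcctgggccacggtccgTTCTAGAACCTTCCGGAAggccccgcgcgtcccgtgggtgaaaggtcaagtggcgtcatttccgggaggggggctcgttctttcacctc
At least 1 such match stood in a window of 6 of the 7 genes, beside 12.8% of 32851 promoter windows in the table. The first count is per gene over any of its windows, and the share is per window. The 6 genes are also not separate cases, since the Hspa1a and Hspa1b windows are near copies and Hspe1 and Hspd1 share an array. The windows of Hspa1a and Hspa1b, genes of the same cluster on chromosome 17, differed at 3 of 250 positions, counted from 1 at the 5′ end with the Hspa1a base first (C44T, T47C and T249G). Both hold the same element, GAAGATTC, 104 to 97 bases before the start. Hspb1 holds 2 separate elements, and the Hsph1 element lies 54 to 47 bases before the start, or 33 to 26 from a further annotated start. Hspe1 and Hspd1 lie head to head, so that a window of each holds the same array of 18 bases. Its letters are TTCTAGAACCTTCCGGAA on the Hspe1 strand and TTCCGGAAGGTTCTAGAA on the Hspd1 strand. This array carries 4 alternating units without a gap. The longer patterns GAANNTTCNNGAA or TTCNNGAANNTTC were found in 0.466% of all windows. For Dnajb1 the patterns are not in either of its windows, and the window of a further annotated Hspd1 start holds none. A match is a description of letters and not a measured binding site.

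**Figure D1:**
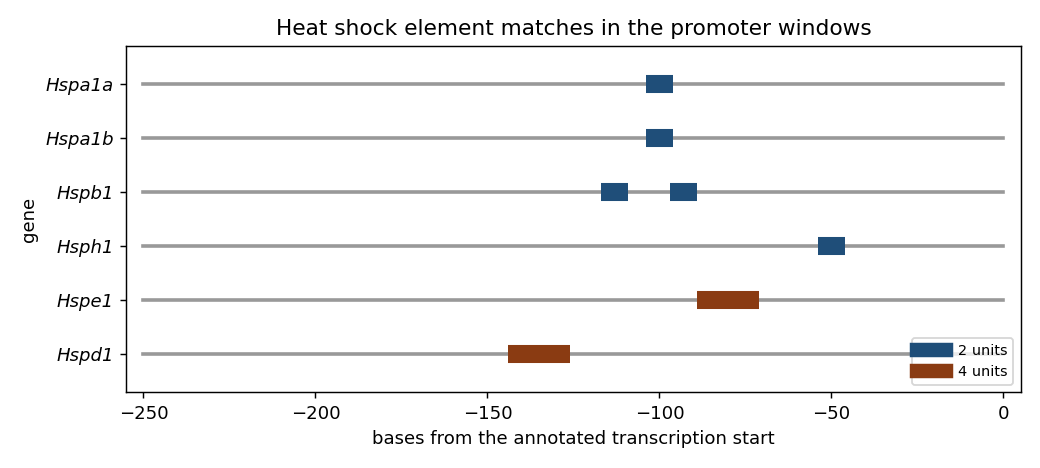
Positions of the matches to GAANNTTC or TTCNNGAA in the 250-base promoter windows of 6 chaperone genes, in bases from the annotated start (x axis), 1 gene per line (for Hsph1, 1 of its windows). Blue blocks span 2 units and brown blocks 4 units; Hspa1a and Hspa1b carry the element at the same place, and Hspe1 and Hspd1 share the longest array.

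Total counts were 49022011 to 71272720 in the strong-knockdown libraries and 24553454 and 27029554 in the weak-knockdown libraries. Repeats within a strong-knockdown group differed by little more than counting noise (mean chi-square per gene 1.2 with NT and 1.37 with Satb1 siRNA, where noise alone gives about 1), so each group was counted as 1 sample. The p-values below therefore compare sequenced libraries and do not stand for a comparison of mice. Satb1 itself had TMM-scaled CPM (counts relative to library size) of 16.6 and 15.3 with NT siRNA and 3.12 and 3.58 with Satb1 siRNA in the strong-knockdown experiment, and of 8.89 and 7.42 in the weak-knockdown experiment. In cells labelled as dendritic, the summed CPM of 11 dendritic cell markers was 370 to 372 (strong NT), 197 to 205 (strong Satb1 siRNA), 8939 (weak NT) and 8721 (weak Satb1 siRNA), with no marker at 0 in any library. In the strong-knockdown experiment 6 of these 11 were called lower and 4 higher (33.2% and 32.8% of all genes were, by the test below). In the weak-knockdown experiment 7 were at least 1.5-fold higher with Satb1 siRNA (15.6% of all genes) and 0 lower (12.2%), with a median log2 ratio of 0.91. Most of the weak-knockdown sums was Cd74 (6811 and 6386 CPM). The part of these markers in the chaperone values was not tested. The sums of 10 macrophage and monocyte markers were 7993 to 7996 (strong NT), 10969 to 10988 (strong Satb1 siRNA), 19931 (weak NT) and 10404 (weak Satb1 siRNA). Lyz2 alone gave 5533 and 5545, 8381 and 8370, 12256 and 5640 CPM in that order. In the strong-knockdown experiment 7 of these 10 were called higher and 2 lower (median log2 0.17), beside 32.8% and 33.2% of all genes. B cell markers (5.48 to 10.2 CPM in the strong-knockdown libraries, 29.5 and 19.6 CPM in the others) and T cell markers (32.6 to 43.9, then 22.4 and 14.9 CPM) were low throughout. Cd3d made up most of the T cell sums in the strong-knockdown libraries (31.0 to 41.2 CPM, then 4.29 and 4.05 CPM). Cd3e, Cd2 and Lck were each higher in both weak-knockdown libraries than in any strong-knockdown library, and Cd3g overlapped. In bulk libraries, fewer cells of a type and less RNA per cell cannot be told apart.

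Together the 10 chaperone genes took 0.872% and 0.874% of all counts in the strong NT libraries and 0.756% and 0.752% in the strong Satb1 siRNA libraries. The shares were 0.592% (NT) and 0.589% (Satb1 siRNA) in the weak-knockdown experiment. Levels of different genes were compared on the authors' FPKM, which divide by transcript length. The constitutive HSP70 gene Hspa8, which encodes HSC70, was the most abundant member in each library, at 2033 and 2044 FPKM in the strong NT libraries, 1822 and 1809 in the strong Satb1 siRNA libraries, 1407 in the weak NT library and 1345 in the weak Satb1 siRNA library. The least abundant was Dnajb1 in the strong-knockdown experiment (11.4 to 16.7 FPKM), Hsph1 in the weak NT library (17.7 FPKM) and Hspa1b in the weak Satb1 siRNA library (8.39 FPKM). In the strong-knockdown experiment no pair of neighbours in the order of FPKM levels overlapped between repeats. The stress-inducible Hspa1a held the fourth place in the strong NT group (mean 153 FPKM) and the seventh in the strong Satb1 siRNA group (mean 96.9 FPKM). It held the fourth place in the weak NT library (68.0 FPKM) and the ninth in the weak Satb1 siRNA library (11.4 FPKM).

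**Figure D2:**
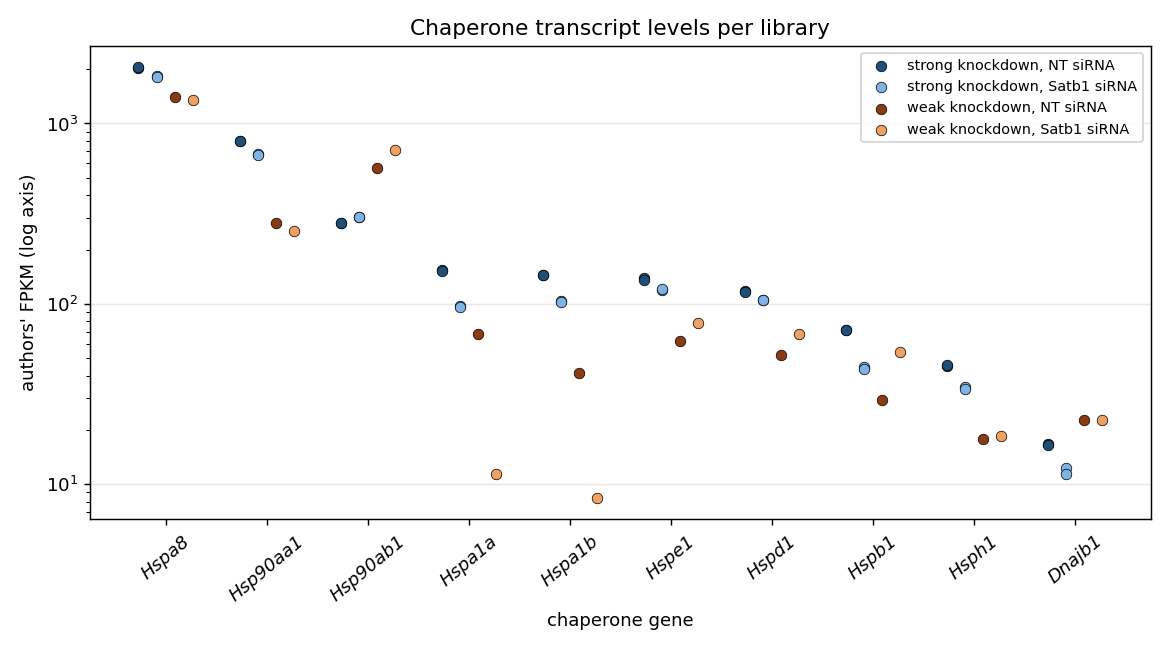
Authors' FPKM (log axis) of the 10 chaperone genes in each of the 6 libraries, 1 point per library, coloured by group. Hspa8 is highest throughout, Hsp90aa1 and Hsp90ab1 change places between the experiments, and Hspa1a and Hspa1b drop to 11.4 and 8.39 FPKM in the weak Satb1 siRNA library.

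In the strong-knockdown experiment, which asks what differs when Satb1 is greatly reduced, 9 of the 10 chaperones were lower in the Satb1 siRNA libraries and 1, Hsp90ab1, was higher (edgeR quasi-likelihood test, Benjamini-Hochberg adjusted p under 0.05). Calls were common in this comparison. Of 20242 genes tested, 66.0% were called, 33.2% lower and 32.8% higher. Among the 5153 more abundant genes (mean log2 CPM at or above 5), 54.9% were called lower. The median log2 fold change was -0.38 over the members and 0.011 over all genes tested. Changes were moderate, with 2 members at least 1.5-fold lower, against 8.61% of all genes tested.

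The inducible cytosolic members had the largest changes. Hspb1, the small heat shock protein that holds unfolding proteins and binds actin, had 58.1 and 58.5 CPM with NT siRNA against 35.1 and 34 CPM with Satb1 siRNA. This was a log2 fold change of -0.75 (SE 0.028, edgeR adjusted p = 2.61e-36). Hspa1a, an inducible HSP70 gene, stood at 399 and 395 against 243 and 239 CPM, a log2 fold change of -0.72 (SE 0.0097, SE from counting alone 0.0105, edgeR adjusted p = 6.17e-65). Its neighbour Hspa1b, which encodes a nearly identical protein, stood at 377 and 374 against 257 and 255 CPM. The log2 fold change of Hspa1b was -0.55 (SE 0.0097, SE from counting alone 0.0104, edgeR adjusted p = 1.10e-57), so that this p and that of Hspa1a are too small. All Satb1 siRNA values lay below all NT values for these genes; the groups of all 10 members, and of 82.2% of all genes tested, did not overlap.

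The co-chaperones of HSP70 were lower too. Dnajb1, the J-domain protein that hands substrates to HSP70, stood at 35.9 and 35.7 against 26.0 and 24.4 CPM (log2 fold change -0.50, SE 0.034, edgeR adjusted p = 7.96e-22). Hsph1, which encodes HSP110, an exchange factor that resets HSP70, stood at 148 and 151 against 109 and 107 CPM (log2 fold change -0.46, SE 0.020, edgeR adjusted p = 8.14e-33).

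The constitutive HSP70 gene and the HSP90 pair changed least among the cytosolic members. Hspa8 stood at 3919 and 3944 against 3362 and 3337 CPM, a log2 fold change of -0.23 (SE 0.0074, edgeR adjusted p = 0.00142). Leaving out 1 of the Satb1 siRNA libraries ended this call, while the log2 fold change stayed at -0.23 without replicate 1 and -0.22 without replicate 2. Hsp90aa1, the stress-inducible HSP90 gene, stood at 2038 and 2044 against 1648 and 1647 CPM, a log2 fold change of -0.30 (edgeR adjusted p = 8.70e-38). Its fitted SE of 0.0019 was smaller than the SE of 0.0042 from counting alone, so the p is too small. Hsp90ab1, the constitutive HSP90 gene, stood at 639 and 636 against 655 and 656 CPM. Its log2 fold change of 0.044 (SE 0.0046, counting SE 0.0070, edgeR adjusted p = 3.02e-13) was the 1 rise of the set, and it amounts to 1.03-fold.

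The mitochondrial pair moved alike in this experiment. Hspd1 encodes HSP60, the chamber that folds imported proteins, and stood at 253 and 250 against 217 and 216 CPM (log2 fold change -0.21, SE 0.013, edgeR adjusted p = 1.31e-23). Hspe1 encodes HSP10, the lid of that chamber, and stood at 95.2 and 93.4 against 77.7 and 78.7 CPM (log2 fold change -0.27, SE 0.023, edgeR adjusted p = 6.24e-17). These are the 2 genes whose windows share the array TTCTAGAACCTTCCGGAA, and its part in their values was not tested. Their FPKM ratio was nearly constant, with 1.13 to 1.19 Hspe1 per Hspd1 over all 6 libraries.

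In the weak-knockdown experiment Hspa1a and Hspa1b had lower ratios than in the strong-knockdown experiment. A knockdown is not clear from Satb1 itself there: the CPM ratio of 0.835 has a counting interval of 0.670 to 1.04, and the authors' FPKM were 0.98 (NT) and 1.04 (Satb1 siRNA). There is 1 library per siRNA, so the values are described without a test, and the intervals cover counting error only. Hspa1a stood at 275 CPM with NT siRNA and 36.1 CPM with Satb1 siRNA, 7.61-fold lower (ratio 0.131, 95% exact counting interval 0.122 to 0.142). Hspa1b stood at 169 and 26.6 CPM, 6.34-fold lower (ratio 0.158, interval 0.144 to 0.172). With the 13700 genes at or above a mean log2 CPM of 0 ordered from the lowest log2 ratio, Hspa1a held place 22 and Hspa1b place 28. With the counts of both genes added, which removes the division of shared reads, the level went from 444 to 62.8 CPM, 7.07-fold lower.

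The other inducible members did not share a change of this size. Dnajb1 stood at 70.8 and 55.3 CPM (ratio 0.780, interval 0.721 to 0.843), and Hsph1 at 91.8 and 74.2 CPM (ratio 0.809, interval 0.756 to 0.865). Hspb1 lay in the opposite direction, at 37.4 CPM with NT and 54.6 CPM with Satb1 siRNA (ratio 1.46, interval 1.33 to 1.60). Hsp90aa1 was lower (1151 and 811 CPM, ratio 0.705, interval 0.691 to 0.719), and so was Hspa8 (4279 and 3195 CPM, ratio 0.746, interval 0.739 to 0.754). Near a ratio of 1 were Hsp90ab1 (2046 and 2010 CPM), Hspd1 (176 and 179 CPM) and Hspe1 (67.2 and 65.9 CPM).

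The ratios of the weak-knockdown experiment depend on scaling. Without TMM the median log2 ratio of all genes went from -0.059 to 0.29, and the log2 ratio of Hsp90ab1 became 0.33, that of Hspe1 0.33 and that of Hsph1 0.049. Relative to the median of all genes, with and without TMM, Hspa1a was at -2.87 and -2.86 and Hspa8 at -0.36 and -0.36. Hsph1 was at -0.25 and -0.24 and Hspb1 at 0.60 and 0.61. TMM shifts all genes of a library nearly alike, so these values could hardly move and are no check. With the authors' FPKM + 1 they were -2.68 for Hspa1a, -0.28 for Hspa8, -0.15 for Hsph1 and 0.66 for Hspb1. At least 1.5-fold differences were seen for 2 members, both lower, where 12.2% of all genes were at least 1.5-fold lower and 15.6% at least 1.5-fold higher.

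**Figure D3:**
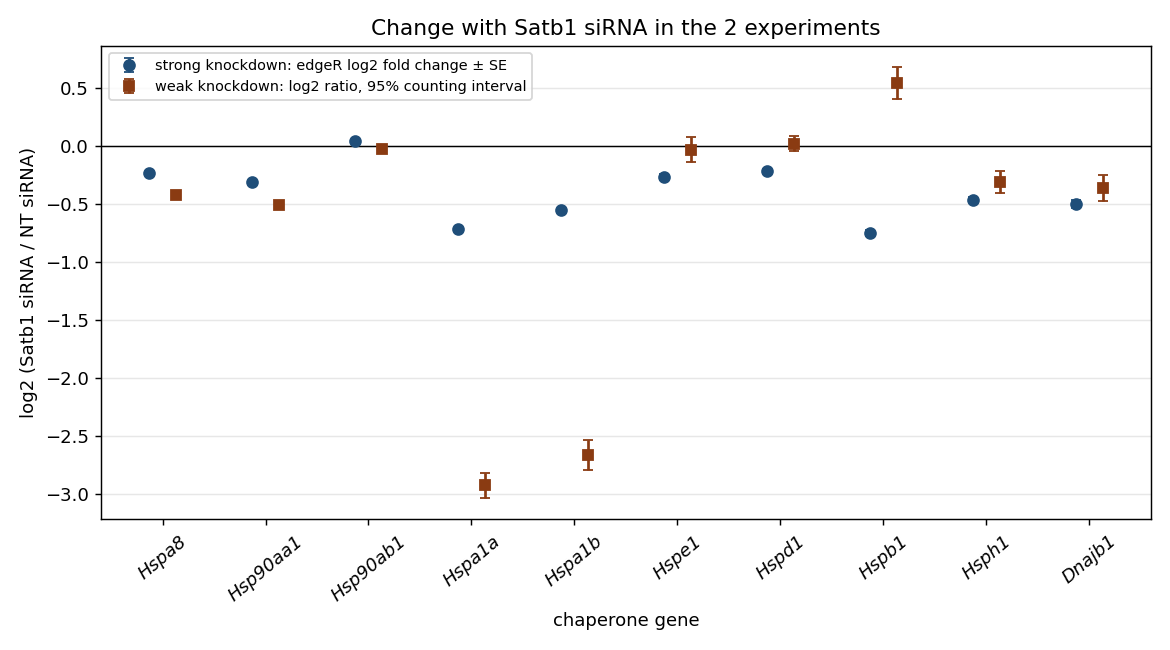
Log2 ratio of Satb1 siRNA to NT siRNA for each chaperone gene (y axis) in the strong-knockdown experiment (blue circles, edgeR log2 fold change with SE) and in the weak-knockdown experiment (brown squares, log2 ratio with 95% counting interval). Hspa1a and Hspa1b lie lowest in the weak-knockdown experiment, and Hspb1 lies below 0 in one experiment and above 0 in the other.

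The log2 effect of the strong-knockdown experiment minus that of the weak-knockdown experiment was 2.21 for Hspa1a, 2.11 for Hspa1b and -1.30 for Hspb1 (edgeR over the 4 groups). The other differences lay between -0.24 and 0.20. An edgeR test of these differences called 9 of 10 members, all but Dnajb1 (-0.15, adjusted p = 0.0724), and 39.7% of 20971 genes. It takes its spread from repeats that count as 1 sample here, while the weak-knockdown groups have 1 library each. The calls thus compare libraries and do not show that the effects differ between the experiments. Without TMM the differences of Hspa8, Hsp90aa1 and Hsp90ab1 changed sign, those of Hsph1, Hspd1 and Hspe1 grew to -0.45, -0.53 and -0.54, and that of Dnajb1 became -0.44 and was called (edgeR adjusted p = 7.65e-09). The call of Hspa8 was lost without any 1 of the 4 strong-knockdown libraries (edgeR adjusted p 0.0888 to 0.2), and that of Hsph1 without Satb1 siRNA replicate 2 (edgeR adjusted p = 0.104). Dnajb1 was called without Satb1 siRNA replicate 1 (-0.19, edgeR adjusted p = 0.0198).

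Another fit counts each group once, with repeats summed and the experiment as a term, and so does not lean on the repeats. With 4 group sums it has little power, and it takes as a knockdown the weak-knockdown experiment, where a knockdown is not clear. Satb1 itself was not called (log2 fold change -1.28, SE 0.55), so a lack of calls does not show that the chaperones were unchanged. The fit called 0 of 10 members in edgeR (2 members, Dnajb1 and Hsph1, at an unadjusted p under 0.05). It called 6 of 19068 genes in all, or 0.0315%, with 8.56% of genes at an unadjusted p under 0.05. Dnajb1 had a log2 fold change of -0.43 (SE 0.15, edgeR adjusted p = 0.496) and Hsph1 of -0.38 (SE 0.15, edgeR adjusted p = 0.545). Hspa1a had the largest fitted change, -1.80, with an SE of 0.70 (edgeR adjusted p = 0.631). Its log2 values were -0.72 in one experiment and -2.93 in the other.

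Like most genes, the chaperones differed between the control libraries of the 2 experiments, and the HSP90 pair did so in opposite directions. These are 2 strong NT libraries, counted as 1 sample, and 1 weak NT library, so that no test was made. Hsp90ab1 was 3.21-fold higher in the weak NT library (2046 against 639 and 636 CPM), while Hsp90aa1 was 1.77-fold lower (1151 against 2038 and 2044 CPM). Dnajb1 was 1.98-fold higher, and Hspa1b, Hsph1 and Hspb1 were 2.22-fold, 1.63-fold and 1.56-fold lower. Of the members, 4 were at least 1.5-fold lower in the weak NT library and 2 higher, where 31.8% and 35.9% of all genes were, or 67.7% in either direction. Without TMM the median of all genes moved from 0.073 to -0.56 on the log2 scale. Relative to that median, Hsp90ab1 was at 1.61 with and without TMM and Hsp90aa1 at -0.90, values that this scaling can hardly move. With the authors' FPKM + 1 they were 1.40 and -1.11.

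Ratios within a library are free of scaling between libraries. Hsp90ab1 had 0.353 and 0.351 FPKM per FPKM of Hsp90aa1 in the strong NT libraries and 0.448 and 0.449 in the strong Satb1 siRNA libraries. In the weak-knockdown experiment the ratio was 2.02 (NT) and 2.81 (Satb1 siRNA). The constitutive HSP90 gene was thus the lesser of the pair in one experiment and the greater in the other, and in both its ratio was higher with Satb1 siRNA. Hspa1a and Hspa1b together came to 14.7% and 14.5% of Hspa8 FPKM in the strong NT libraries, 11% and 11% in the strong Satb1 siRNA libraries, 7.78% in the weak NT library and 1.47% in the weak Satb1 siRNA library. The ratio of Hspa1a to Hspa1b was 1.06 and 1.05 (strong NT), 0.944 and 0.948 (strong Satb1 siRNA), 1.63 (weak NT) and 1.36 (weak Satb1 siRNA).

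**Figure D4:**
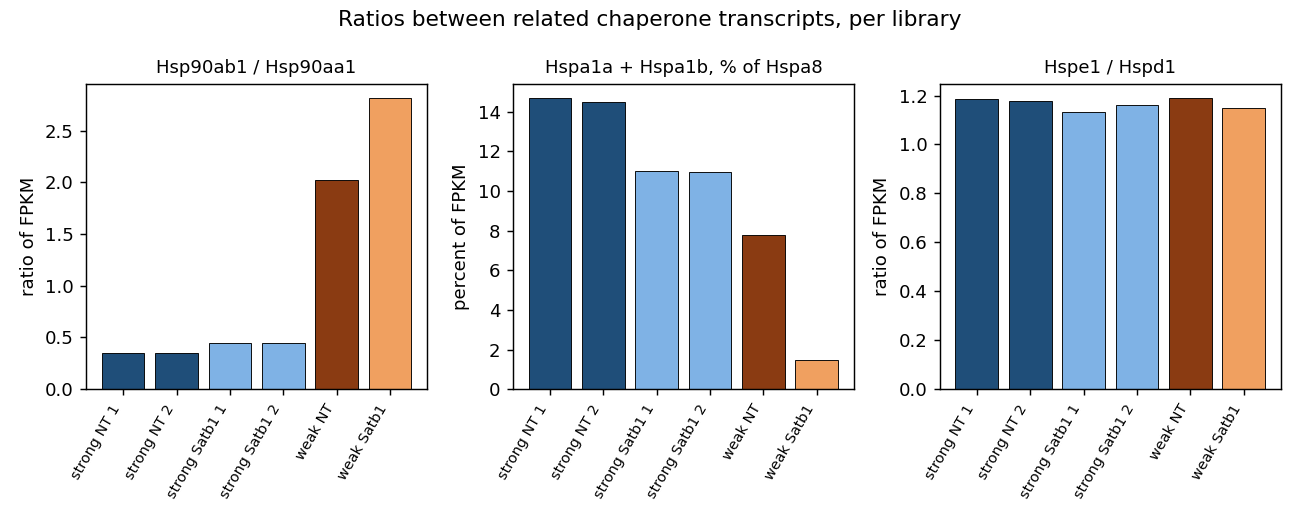
Ratios of the authors' FPKM within each of the 6 libraries (bars, 1 per library, axes from 0): Hsp90ab1 to Hsp90aa1, the sum of Hspa1a and Hspa1b in percent of Hspa8, and Hspe1 to Hspd1. The first ratio is below 0.5 in all strong-knockdown libraries and above 2 in both weak-knockdown libraries, while the last stays between 1.13 and 1.19.

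Sequence shared with other genes bears on how estimated counts are divided. In the longest GENCODE M21 transcript of each gene, the share of 50-base windows that also occur in a transcript of another gene was 60.3% for Hspa1a and 62.3% for Hspa1b, nearly all with each other. It was 51.4% for Hspa8, 58.5% for Hsp90aa1, 44.8% for Hspd1 and 51.6% for Hspb1, in these 4 mostly with processed copies such as Gm15459, Gm12346, Hspd1-ps3 and Hsp25-ps1. Hsp90ab1 (4.49%), Hspe1 (8.20%), Dnajb1 (0.407%) and Hsph1 (0%) shared little. The values of Hspa1a and Hspa1b singly are therefore uncertain, and those of the other 4 may hold reads of copies.

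Lists of related chaperone genes place the set in its network. HSP90 co-chaperones, which load clients and time its ATP cycle, were lower in 12 of 14 cases and higher in 2 in the strong-knockdown experiment (median log2 -0.21), beside the 33.2% and 54.9% called lower among all and abundant genes. Ahsa1, the activator of HSP90's ATPase, went from 87.5 and 87.4 to 61.4 and 62.4 CPM (log2 fold change -0.49). Stip1, the adaptor that joins HSP70 to HSP90, had a log2 fold change of -0.33 and Tomm34 one of -0.39. In the weak-knockdown experiment the list's median log2 ratio was -0.053, with 0 of 14 genes at least 1.5-fold changed.

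HSP70's exchange factors and ubiquitin partners were lower in 6 of 8 cases and higher in 2 (median log2 -0.25). Beside the counts of this paragraph, 33.2% of all genes tested were called lower and 32.8% higher, and 54.9% of the abundant genes lower. The shares called lower of the J-domain and HSP70 relative lists below lay between 33.2% and 54.9%. Stub1, the ubiquitin ligase CHIP, had a log2 fold change of -0.39 and St13 one of -0.26, while Bag4 was higher by 0.29. The less abundant Hspbp1 had a larger change, -0.75 (8.01 to 4.76 CPM). J-domain co-chaperones were divided, with 5 of 13 lower, 3 higher and 5 not called (median log2 -0.042); Dnajc9 had a log2 fold change of -0.29, Dnajc5 of -0.27 and Dnajb14 of 0.28. HSP70 relatives were lower in 3 of 6 cases and higher in 3 (Hspa4 -0.16, Hspa14 -0.16 and Hspa2 0.13). Hspa4 is an HSP110 relative like Hsph1, whose log2 fold change was -0.46. In the weak-knockdown experiment the median log2 ratios of these lists were -0.15, -0.13 and -0.033.

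The cytosolic chaperonin TRiC, which folds actin and tubulin, and its partner prefoldin were lower in 12 of 13 cases and higher in 1 (median log2 -0.18). Cct3 had a log2 fold change of -0.33, Cct6a of -0.28 and Cct7 of -0.25. For the lists of this paragraph the shares of all genes tested are again 33.2% lower and 32.8% higher, with 54.9% lower among the abundant genes. Mitochondrial chaperones and proteases were lower in 11 of 13 cases, with 1 higher and 1 not called (median log2 -0.22). Grpel1, the exchange factor of the mitochondrial HSP70, had a log2 fold change of -0.46, the protease subunit Afg3l2 of -0.36 and the import factor Timm44 of -0.28. Heat shock factors and their regulators were lower in 7 of 8 cases, with 1 not called (median log2 -0.21; Sirt1 -0.31, Hsf2 -0.21 and Hdac6 -0.20). Hsf1, at a low 6.02 and 7.20 against 4.36 and 5.18 CPM, had a log2 fold change of -0.47, while in the weak-knockdown experiment it stood at 22.1 (NT) and 29.2 CPM (Satb1 siRNA).

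Of the 5 other small heat shock protein genes at or above a mean log2 CPM of 0, 3 were at least 1.5-fold higher with Satb1 siRNA in the weak-knockdown experiment (15.6% of all genes) and 0 at least 1.5-fold lower (12.2%), with a median log2 ratio of 1.54. Hspb6 stood at 3.56 CPM (NT) and 2.88 CPM (Satb1 siRNA). Hspb8 went from 17.4 to 50.6 CPM and the lens and muscle protein gene Cryab from 4.29 to 15.2 CPM. In the strong-knockdown experiment 2 of 6 tested genes were lower (33.2% of all genes), 2 higher (32.8%) and 2 not called. Of the 2 higher genes, Hspb11 had a log2 fold change of 0.16. The other, Hspb3, was near the floor, with counts of 2 and 2 (NT) and 9 and 14 (Satb1 siRNA). Tumour, epithelial and mesothelial markers were higher in the weak Satb1 siRNA library than in the weak NT library, with 8 of 8 at least 1.5-fold higher, beside 15.6% of all genes. Their summed CPM was 169 (weak NT) and 610 (weak Satb1 siRNA), against 645 to 647 (strong NT) and 698 to 704 (strong Satb1 siRNA), and no marker was at 0 in any library. Their part in the Hspb1, Hspb8 and Cryab values was not tested.

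Immediate early genes, which rise within minutes of handling or signalling and are often induced beside Hspa1a, were lower in 17 of 17 cases in the strong-knockdown experiment, beside 33.2% of all genes (median log2 -0.72). Zfp36 had a log2 fold change of -1.05, Junb of -1.0 and Ier5 of -0.85. The less abundant Egr2 had one of -1.09 (8.21 to 3.86 CPM). Of the 17, 9 were at least 1.5-fold lower in the weak-knockdown experiment (12.2% of all genes) and 0 at least 1.5-fold higher (15.6%), with a median log2 ratio of -0.61. Summed over the list, the level was 5690 CPM in the weak NT library and 3679 CPM in the weak Satb1 siRNA library, against 1943 to 1944 (strong NT) and 1410 to 1424 CPM (strong Satb1 siRNA). Between the control libraries the list was higher in the weak NT library (median log2 1.93), while Hspa1a (-0.53) and Hspa1b (-1.15) were lower there. The part of handling in the Hspa1a and Hspa1b values was not tested. In the same weak-knockdown comparison the macrophage and monocyte markers were at least 1.5-fold lower in 6 of 10 cases (12.2% of all genes) and the summed CPM of 5 neutrophil markers, with Camp at 0 in some libraries, was 335 (NT) and 93.4 (Satb1 siRNA), and their part was not tested either.

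**Figure D5:**
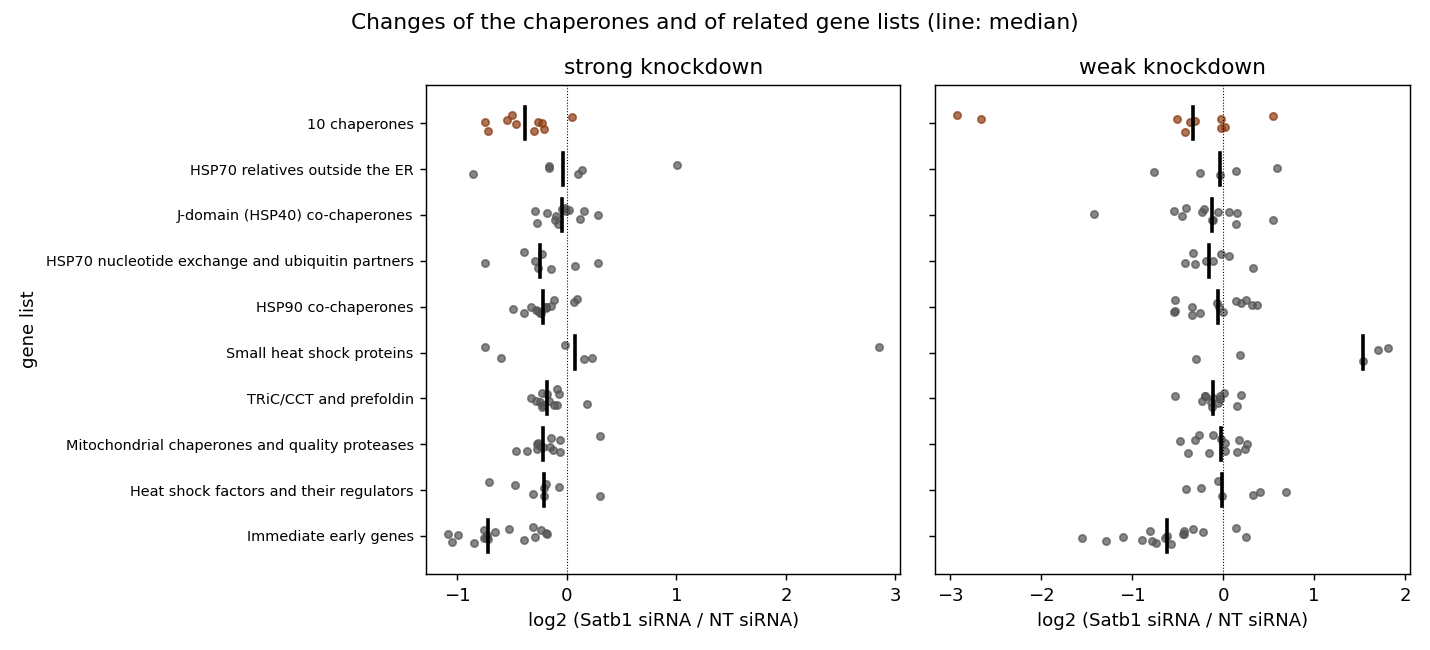
Log2 ratio of Satb1 siRNA to NT siRNA for the 10 chaperones (brown) and for the members of 9 related lists (grey, 1 point per gene), with the median as a black line, in the strong-knockdown (left) and weak-knockdown experiment (right). The chaperone medians are -0.38 and -0.33, the immediate early medians -0.72 and -0.61, and the small heat shock proteins lie at a median of 1.54 on the right.

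Of 9330 other genes at or above a mean log2 CPM of 3, the 5 whose profile over the 4 groups lay nearest to the members' median profile were Psmd6, Grpel2, Cstf2t, calp80 and Psmc1, with root mean square distances of 0.065 to 0.070 on the log2 scale. Psmd6 and Psmc1 encode proteasome subunits and Grpel2 a mitochondrial exchange factor of HSP70. The distances of the members themselves ran from 0.10 for Hspe1 and 0.12 for Hspd1 to 1.18 for Hspa1a and 1.29 for Hspa1b. The 5 genes were picked as the nearest of 9330, and the members set the median. Distances of members and of these genes therefore cannot be compared. Among the members, the mitochondrial pair was closest to the median profile of the set, and the inducible HSP70 pair and Hsp90ab1 (0.98) farthest from it.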

How the data were processed

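Total RNA was extracted with Trizol and made into TruSeq Stranded Total RNA libraries, per the labels' protocols. The deposited table holds FPKM and counts of every gene in each of the 6 libraries, per the file headers. The authors' FPKM are relative to transcript length and library size. The deposited counts were taken as estimated counts (RSEM), since RSEM 1.2.12, DESeq2 and mm9 are named in the submitters' processing notes. All were whole numbers, so rounding changed none. No source used here names the aligner or the strand setting.

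The main test was edgeR 4.0.16 (R 4.3.3): robust quasi-likelihood F-tests, two-sided, TMM scaling, the filterByExpr filter and Benjamini-Hochberg adjustment over all genes, with a threshold of 0.05. It used the 4 strong-knockdown libraries, and all 6 for the difference of effects. DESeq2 1.42.0 was an alternative. CPM are TMM-scaled over 6 libraries, and log2 ratios without a test have a prior count of 2. Counting intervals are exact at 95% and, like all counting errors, ignore PCR copies. Members and lists were chosen with earlier results of these data known. Of 106 entries in the chaperone and stress lists and 45 cell type markers, 100 and 44 matched the table. Named were the members, Satb1, up to 3 called genes per chaperone or stress list with the largest change and a mean log2 CPM of 3 or more over the 4 strong-knockdown libraries, and the 5 genes of nearest profile; Hsf1, Hspb6, Hspb8, Cryab, Hspbp1 and Egr2 were chosen after their values were seen.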

Additional observations from a re-analysis of the deposited data

Results flagged for a closer look

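An edgeR test of the difference between the Satb1 siRNA effects in the strong-knockdown and weak-knockdown libraries called 9 chaperones. As strong minus weak on the log2 scale, the difference was 2.21 for Hspa1a, 2.11 for Hspa1b and -1.30 for Hspb1. It was 0.19 for Hspa8, 0.20 for Hsp90aa1, 0.065 for Hsp90ab1, -0.16 for Hsph1, -0.24 for Hspd1 and -0.24 for Hspe1. The single weak-knockdown libraries have no repeat, and their spread was taken from the strong-knockdown repeats, which are nearly identical, so the calls compare libraries and do not show a difference between conditions. Without TMM, 3 of the smaller values changed sign, as given in the next part.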

How the results depend on the processing

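With repeats summed and the experiment as a term, edgeR called 0 members in all, 0 lower and 0 higher. The fit of the strong-knockdown libraries called 10, 9 and 1. The summed fit estimates an siRNA effect common to both experiments (Hspa1a -1.80 against -0.72), so it does not retest the strong-knockdown comparison. In that fit the spread comes from the disagreement of the 2 experiments, and Satb1 itself was not called. Scaling by library size alone, DESeq2, no low count filter, all 6 libraries in the fit and the replicate block each kept 10 called members (9 lower, 1 higher). Same-numbered replicates were not paired (correlation of same-number deviations 0.027 over 9340 genes), and the block called 6584 higher and 6664 lower genes, against 6645 and 6722 without it. Leaving out 1 library gave 9 to 10 called members, 8 to 9 of them lower and 1 higher, and 7 to 9 called differences of effects, against 9. DESeq2 called 6 such differences, losing Hsph1 (adjusted p = 0.728), Hspd1 (adjusted p = 0.153) and Hspe1 (adjusted p = 0.426). Without TMM the differences of Hspa8, Hsp90aa1 and Hsp90ab1 reversed to -0.11, -0.10 and -0.23; the median log2 ratio of all genes in the weak-knockdown experiment went from -0.059 to 0.29 under it. In the weak-knockdown experiment 1 member, Hspb1, was at least 1.5-fold higher with library size alone, with TMM over the 2 weak-knockdown libraries and with the authors' FPKM + 1, against 0 in the values reported. The 1.5-fold lower members were 2 in each of these settings. With library size alone, or with the authors' FPKM + 1, 8 members differed at least 1.5-fold between the control libraries, against 6.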
